A study of Mus musculus with 9 samples.

Results

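The 9 genes that encode the neuronal nicotinic acetylcholine receptor subunits named here, alpha2 to alpha7 (Chrna2, Chrna3, Chrna4, Chrna5, Chrna6 and Chrna7) and beta2 to beta4 (Chrnb2, Chrnb3 and Chrnb4), were followed in an RNA sequencing comparison of mouse midbrain tissue with midbrain dopaminergic neurons. They were chosen by symbol, and each of the 9 matched 1 of the 24487 rows of the deposited table. Whole midbrain was sequenced in 5 libraries and its dopaminergic neurons in 4, all from C57BL/6 mice. No treatment, transgene, age or sex is given for either group in the sources used here. The table itself is titled with the word bacTRAP, a method in which tagged ribosomes are pulled out of 1 cell type together with their RNA. No label states the driver or tag, or whether each library is a separate animal. The p-values therefore rest on the spread among these libraries, and that spread may be technical.

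Nicotinic receptors are cation channels opened by acetylcholine and nicotine, and each is a ring of 5 subunits. In brain most are built from alpha and beta subunits together, whereas alpha7 can form a ring of its own. Receptors that hold alpha6 and beta3 are known as the hallmark of catecholaminergic neurons, where they sit beside alpha4 and beta2 on the axon terminals that release dopamine. Alpha5 and beta3 are accessory subunits that do not form the usual agonist site.

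Values are FPKM, fragments scaled to transcript length and to library size, so levels of different genes are compared per length. The depth of the libraries is unknown, since the table gives no counts and the step of 1 read was shared by at most 2 of the genes searched in a library. Whole midbrain library 2 stood apart, with a mean correlation across genes of 0.904 with its own group against 0.941 to 0.947 for the rest of it. Summed over the table, FPKM ranged from 506466 to 521822 for the neurons and from 309275 to 409130 for the tissue. All 13 marker genes of dopaminergic neurons rose, and their FPKM summed to 5468 to 6275 against 410 to 485 in whole midbrain. With limma at an adjusted p under 0.05, 5014 of 13106 tested genes (38.3 percent) were higher in dopaminergic neurons and 4717 (36.0 percent) were lower; a gene was tested where its mean reached 1 FPKM. The split was 2248 higher and 7393 lower as TPM, and 3872 and 5673 with upper-quartile scaling.

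Transcripts of 6 of the 7 subunits that reached a mean of 1 FPKM rose in dopaminergic neurons, none fell, and alpha7 did not pass. That is to be read against the 38.3 percent of all tested genes that were called higher. Alpha6 and beta3 rose most, alpha4 had the highest level, and beta2 rose least. For 5 of the 7 the log2 fold change of FPKM + 1 was at least 1. Of all 13106 tested genes, 15.1 percent were called higher with a change of that size. The groups did not overlap for the 6 that rose, against 32.6 percent of tested genes that lay higher without overlap. The median log2 fold change of the 7 was 2.24, beside 0.04 over all genes tested. It was 1.79 beside -0.55 as TPM. Without the filter on low values, which left out Chrna2 and Chrnb4, the median of all 9 was 1.83 beside -0.04, and Chrna2 was called lower. In these bulk samples, more cells of a type and more RNA per cell cannot be told apart. If the dopaminergic RNA was pulled out with ribosomes, as the word bacTRAP would mean, that preparation and cell type cannot be told apart either. The whole midbrain values have a numerical form that weighted means of several values would have, which the dopaminergic values lack. Whether values were averaged was not tested. No label records such a step, so the spread of whole midbrain may be that of averaged values, and this handling and cell type cannot be told apart.

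**Figure D1:**
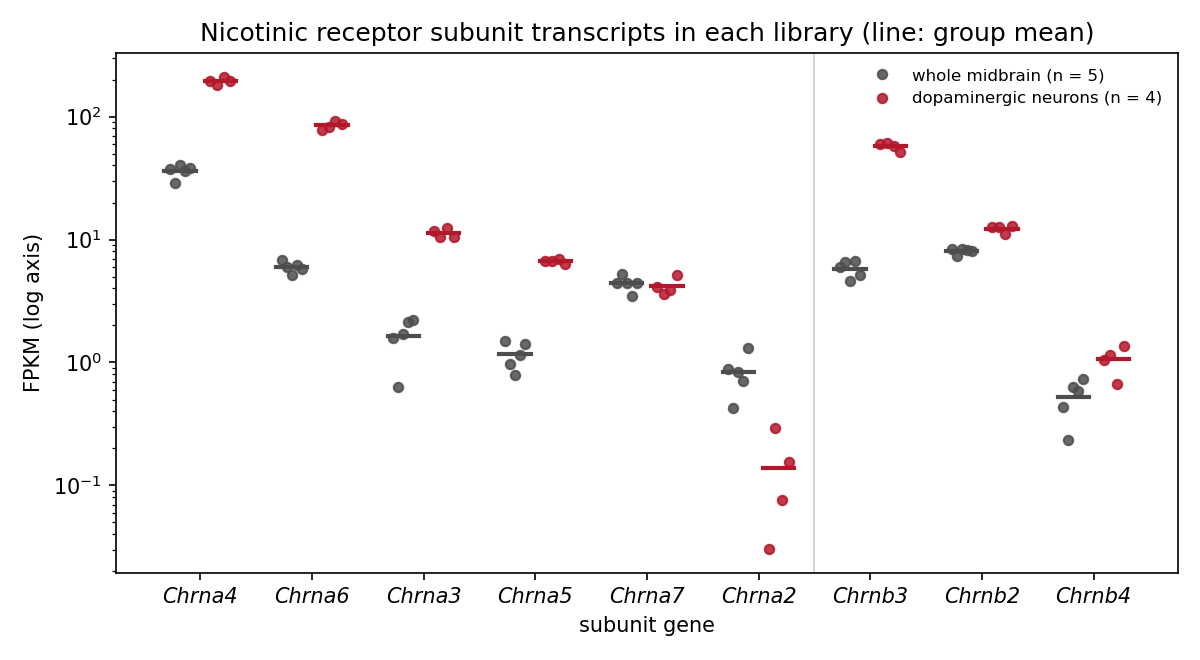
FPKM of the 9 subunit genes in each library on a log axis, with alpha subunits left of the vertical line and beta subunits right of it; points are libraries and short lines are group means. Chrna4, Chrna6, Chrnb3, Chrna3, Chrna5 and Chrnb2 are higher in all 4 dopaminergic libraries than in any whole midbrain library, Chrna7 and Chrnb4 overlap, and Chrna2 is lower.

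Chrna6 encodes alpha6, the subunit most typical of dopaminergic terminals (chromosome 8, 27403212 to 27413944, mm10, minus strand). Its level was 77.1, 82.5, 92.2 and 87.2 FPKM in dopaminergic libraries 1 to 4 and 6.79, 5.98, 5.14, 6.24 and 5.79 in whole midbrain libraries 1 to 5. Every dopaminergic library was far above every whole midbrain library, and the spread within each group was small. The means of 84.8 ± 6.45 (SD, n = 4) and 5.99 ± 0.605 (SD, n = 5) differed 14.2-fold. The log2 fold change of 3.62 ± 0.09 (SE; limma adjusted p = 1.0e-09) ranked 22 among all genes tested.

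Chrnb3 encodes beta3, an accessory subunit that assembles with alpha6, and its gene lies 3.5 kb from Chrna6 on the opposite strand (chromosome 8, 27368711 to 27399730). Its dopaminergic values were 59.4, 60.5, 57.6 and 51.3 FPKM, and its whole midbrain values were 6.03, 6.57, 4.62, 6.65 and 5.15. The groups were again widely separated, at 57.2 ± 4.10 against 5.80 ± 0.895, 9.86-fold apart. The log2 fold change was 3.10 ± 0.11 (SE; limma adjusted p = 6.1e-09), and 37 genes, or 0.282 percent of those tested, rose by at least as much, Chrnb3 included. Within whole midbrain Chrna6 and Chrnb3 could not be ordered, since Chrna6 was the higher in 3 of 5 libraries. In dopaminergic neurons Chrna6 was the higher in 4 of 4.

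Chrna4 encodes alpha4, which with beta2 forms the most widespread high-affinity nicotine receptor of the brain (chromosome 2, 181022311 to 181039177, minus strand). It had the highest level of the 9 in both groups, with 195, 181, 211 and 196 FPKM in dopaminergic neurons and 37.7, 29.0, 40.1, 36.2 and 38.2 in whole midbrain. Library 2 was the lowest of the whole midbrain group and the groups did not overlap. The means were 196 ± 12.2 and 36.3 ± 4.29, a 5.41-fold difference, with a log2 fold change of 2.41 ± 0.10 (SE; limma adjusted p = 2.1e-08).

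Chrnb2 encodes beta2, the common partner of alpha4 and alpha6 (chromosome 3, 89753448 to 89764632, minus strand). It stood at 12.6, 12.5, 11.0 and 12.9 FPKM in dopaminergic neurons and at 8.38, 7.31, 8.41, 8.16 and 8.04 in whole midbrain. The groups lay close together without overlap, at 12.2 ± 0.845 against 8.06 ± 0.445. The log2 fold change of 0.55 ± 0.07 (SE; limma adjusted p = 6.6e-05) is the smallest of the 6 called. When FPKM was rescaled to TPM, which moved the median of all genes to -0.55, Chrnb2 stood at -0.04 and did not pass (limma adjusted p = 0.789). Relative to the median of all genes, it was higher on both scales. The table's span of Chrnb2 stops 7253 genomic bases short of the outermost 3′ end in GENCODE, so its FPKM may cover a shorter model. The GENCODE transcript nearest to that span holds 6399 of the 8380 exonic bases of the gene. In that annotation 1365 exonic bases overlap Adar on the opposite strand, and Adar was at 20.7 ± 1.75 FPKM against 15.5 ± 1.37. In the table's own spans the genes share 8 bases. The libraries are not stated to keep strand. The spans of Chrna4 and Chrna3 stop 3931 and 1232 genomic bases short in the same way. Their nearest transcripts hold 4565 of 5022 and 4358 of 5265 exonic bases.

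Chrna3, Chrna5 and Chrnb4 lie within one cluster on chromosome 9, with gaps of 3.6 kb between Chrna5 and Chrna3 and 1.6 kb between Chrna3 and Chrnb4. Alpha3 and beta4 are the main subunits of autonomic ganglia and of the habenula and interpeduncular pathway, and alpha5 joins receptors made of other alpha and beta subunits. The promoter windows of the pair that rose, and of Chrnb2, which rose least, show the sequence just before each start. They are the 250 bases before the RefSeq start (GRCm38.p6), 5′ to 3′ on the gene's own strand, with capitals for a match to any of 5 searched motifs.
Chrna5 (chr9:54980630-54980879, plus strand): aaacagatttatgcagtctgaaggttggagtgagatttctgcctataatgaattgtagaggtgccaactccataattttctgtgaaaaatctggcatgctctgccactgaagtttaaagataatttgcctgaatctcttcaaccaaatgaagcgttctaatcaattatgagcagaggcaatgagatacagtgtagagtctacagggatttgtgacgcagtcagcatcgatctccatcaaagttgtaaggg
Chrna3 (chr9:55026563-55026812, minus strand): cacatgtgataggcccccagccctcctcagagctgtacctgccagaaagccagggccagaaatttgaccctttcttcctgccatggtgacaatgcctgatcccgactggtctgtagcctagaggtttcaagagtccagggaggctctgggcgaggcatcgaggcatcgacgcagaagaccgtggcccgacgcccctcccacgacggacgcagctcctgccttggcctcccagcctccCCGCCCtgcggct
Chrnb2 (chr3:89764633-89764882, minus strand): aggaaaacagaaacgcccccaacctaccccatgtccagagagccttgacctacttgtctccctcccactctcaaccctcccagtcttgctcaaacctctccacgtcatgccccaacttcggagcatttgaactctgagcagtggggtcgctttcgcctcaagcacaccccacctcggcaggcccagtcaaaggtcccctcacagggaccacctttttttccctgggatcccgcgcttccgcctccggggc

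The motifs, searched on both strands, were the Sp1 box GGGCGG, the Nr4a2 element AAAGGTCA, the bicoid-type TAATCC of Pitx3, the homeodomain TAATTA of Lmx1b and En1, and the forkhead TGTTTAC of Foxa1 and Foxa2. They occurred in 32.7, 1.34, 6.25, 4.84 and 3.17 percent of all 32851 RefSeq windows of that length. Of the windows printed, that of Chrna3 held 1 Sp1 box, 13 bases before the start on the other strand, and those of Chrna5 and Chrnb2 held no match. The RefSeq table also holds a second Chrna5 start, 608 bases downstream of the table's, whose window has 4 Sp1 boxes and a GC content of 65.2 percent. The GC content at the first start was low, matched or undercut by 12.5 percent of all windows. The window of Chrna4 held 3 Sp1 boxes, that of Chrna7 held 1, and that of Chrnb4 held no match. None of these windows held the letters searched for Nr4a2, Pitx3, Lmx1b and En1 or Foxa1 and Foxa2, which says only that those letters are not in these windows. Chrna2, Chrna6 and Chrnb3 had no entry.

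Chrna3 (chromosome 9, 55011343 to 55026559) was at 11.7, 10.5, 12.4 and 10.4 FPKM in dopaminergic neurons and at 1.58, 0.628, 1.70, 2.15 and 2.21 in whole midbrain. The means of 11.3 ± 0.956 and 1.65 ± 0.636 differed 6.81-fold, and library 2 was the lowest of its group. Its log2 fold change was 2.24 ± 0.18 (SE; limma adjusted p = 1.8e-06), and 2.08 without whole midbrain library 2. Chrna5 (chromosome 9, 54980880 to 55007779) was at 6.72, 6.69, 6.91 and 6.34 FPKM against 1.51, 0.976, 0.790, 1.14 and 1.42. Its dopaminergic values varied little and lay 5.71-fold above whole midbrain, with a log2 fold change of 1.83 ± 0.11 (SE; limma adjusted p = 2.1e-07).

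Chrnb4 (chromosome 9, 55028156 to 55048544) had a mean below 1 FPKM and was left out of the main test. It was at 1.04, 1.15, 0.671 and 1.37 FPKM in dopaminergic neurons and at 0.438, 0.234, 0.628, 0.588 and 0.731 in whole midbrain. Dopaminergic library 3 fell inside the whole midbrain range. Without the filter on low values, which called 25.9 percent of 20084 genes higher, Chrnb4 had a log2 fold change of 0.43 ± 0.13 (SE; limma adjusted p = 0.0144). The 3 genes of the cluster thus reached levels of 11.3, 6.66 and 1.06 FPKM in the same dopaminergic libraries.

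Chrna7 encodes alpha7, the subunit of a fast calcium-permeable receptor that needs no partner (chromosome 7, 63098692 to 63212526). It was at 4.08, 3.60, 3.88 and 5.17 FPKM in dopaminergic neurons and at 4.47, 5.23, 4.41, 3.50 and 4.41 in whole midbrain. The ranges lay on top of each other, and the log2 fold change of -0.06 had a 95 percent interval from -0.32 to 0.20 (limma adjusted p = 0.644). On the TPM scale Chrna7 stood at -0.66 and was called lower (limma adjusted p = 0.00062), close to that scale's median of -0.55. Under quantile normalization it was at 0.22 and under median centring at 0.01, neither of which passed.

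Chrna2 encodes alpha2, known from the interpeduncular nucleus and from few other brain cells (chromosome 14, 66140960 to 66152948). It was at 0.0305, 0.294, 0.0757 and 0.156 FPKM in dopaminergic neurons and at 0.883, 0.423, 0.839, 0.714 and 1.30 in whole midbrain. It was the only subunit with every dopaminergic library below every whole midbrain library, as were 31.8 percent of the genes tested. Without the filter on low values, which called 34.2 percent of genes lower, its log2 fold change was -0.67 ± 0.13 (SE; limma adjusted p = 0.0015), and its mean was 5.98-fold lower.

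The order of the subunits differed between the groups. In dopaminergic neurons it ran Chrna4, Chrna6, Chrnb3, Chrnb2, Chrna3, Chrna5, Chrna7, Chrnb4 and Chrna2. Neighbours in that order did not overlap over the 4 libraries, except Chrnb2 and Chrna3, which did. In whole midbrain it ran Chrna4, Chrnb2, Chrna6, Chrnb3, Chrna7, Chrna3, Chrna5, Chrna2 and Chrnb4. There Chrna4, Chrnb2 and Chrna7 each stood clear of the next gene, and the other 5 neighbouring pairs overlapped. Chrnb2 moved from rank 2 in the tissue to rank 4 in the neurons.

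The FPKM of the 9 genes summed to 374 ± 15.8 in dopaminergic neurons and 64.7 ± 4.76 in whole midbrain. Chrna4 made up a like part of the sum in both, 52.4 ± 1.31 percent against 55.9 ± 3.13 percent. Chrna6 took 22.7 ± 1.16 percent in the neurons and 9.30 ± 1.15 percent in the tissue, and Chrnb3 took 15.3 ± 1.40 against 9.06 ± 1.91 percent. Lower shares in the neurons were those of Chrnb2, 3.29 ± 0.34 against 12.5 ± 0.37 percent, and of Chrna7, 1.12 ± 0.19 against 6.88 ± 1.44 percent. A share can fall while its gene rises, as Chrnb2 did, from 8.06 FPKM in the tissue to 12.2 in the neurons. Beta subunits together held 17.5 to 20.7 percent of the sum in the neurons and 20.5 to 25.1 percent in the tissue, ranges that overlap. A transcript share is not a share of receptor protein, and receptor make-up itself was not measured.

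**Figure D2:**
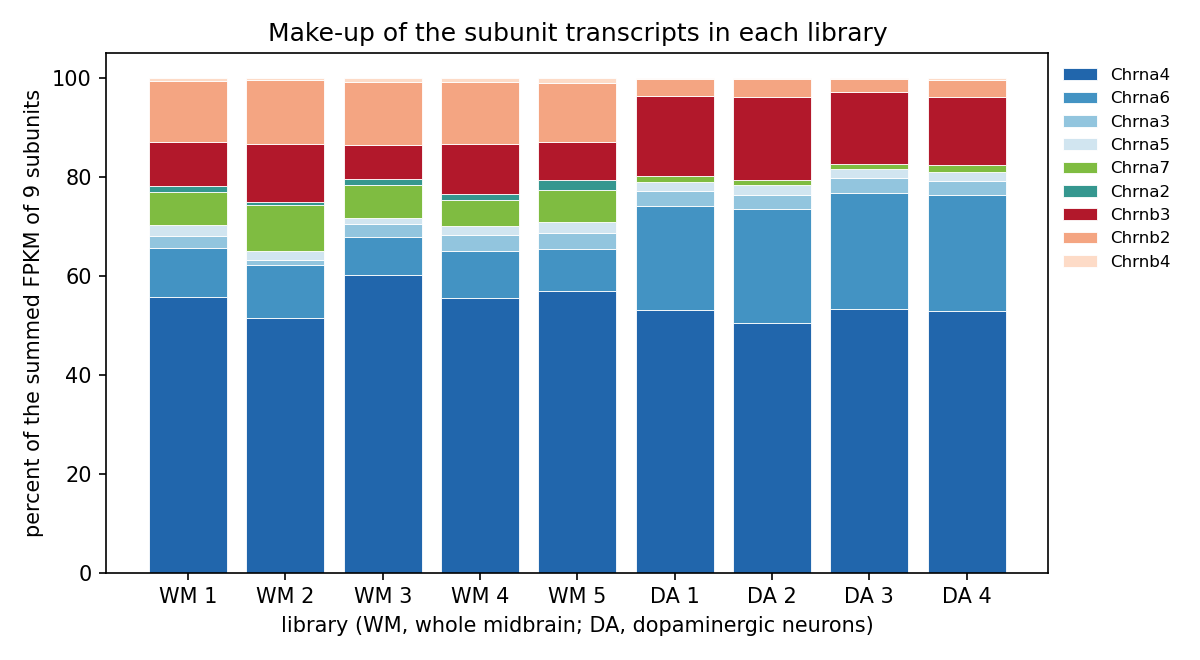
Stacked bars of the percent of the summed FPKM of the 9 subunit genes that each gene holds, for 5 whole midbrain (WM) and 4 dopaminergic (DA) libraries. Chrna4 fills 50.5 to 60.2 percent of every bar, and in the dopaminergic bars Chrna6 and Chrnb3 are wider and Chrnb2 and Chrna7 narrower.

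Ratios of subunit genes within a library depend little on how the libraries were scaled. Of 8 ratios compared, 7 differed between the groups without overlap (two-sided exact permutation test). The ratios share genes, so they are not independent, and the share of other gene pairs that separate likewise was not computed. Taken singly, 32.6 percent of tested genes lay higher without overlap and 31.8 percent lay lower. Each of the 7 had p = 0.00794, the smallest that 4 libraries against 5 can give, and an adjusted p of 0.00907 over the 8 in this exact test. Among the beta genes, Chrnb3 to Chrnb2 stood at 4.69, 4.80, 5.20 and 3.97 in the neurons and at 0.723, 0.900, 0.554, 0.817 and 0.644 in the tissue. By FPKM, Chrnb3 was thus the higher of the pair in every dopaminergic library and the lower in every tissue library. The span of Chrnb2 stops 7253 genomic bases short of the outermost annotated 3′ end, whereas that of Chrnb3 reaches it. The nearest annotated transcript holds 6399 of 8380 exonic bases for Chrnb2 and 4589 of 6369 for Chrnb3. What the transcript models used do to the ratios and orders that involve these genes was not tested.

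Both alpha genes shifted against Chrnb2. Chrna6 to Chrnb2 was 6.92 ± 0.972 (SD, n = 4) in the neurons and 0.748 ± 0.0836 (SD, n = 5) in the tissue, and Chrna4 to Chrnb2 ran from 14.4 to 19.0 against 3.92 to 4.72. Chrna6 to Chrna4 was 0.396, 0.455, 0.437 and 0.444 in the neurons against 0.182, 0.209, 0.130, 0.174 and 0.154, so that alpha4 transcript was the higher of these alpha genes in all 9 libraries. The distance between the groups was 2.58-fold for that ratio. Chrna6 to Chrnb3, the neighbouring genes, moved least of the 7, from 1.04 ± 0.107 in the tissue to 1.49 ± 0.190 in the neurons.

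Chrna3 to Chrnb4, neighbours of the other cluster, stood at 10.5 ± 4.01 in the neurons and 2.77 ± 0.448 in the tissue, with dopaminergic library 3 highest at 16.2. Chrna7 to Chrna4 was lower in the neurons, 0.0219 ± 0.00348 against 0.127 ± 0.0327. The remaining ratio, Chrna5 to Chrna4, was 0.0346 ± 0.00211 in the neurons and 0.0351 ± 0.00785 in the tissue and overlapped (exact permutation p = 0.960, log2 difference 0.01 ± 0.19, SE). These ratios add 0.1 to each FPKM, which for a gene as low as Chrna5 matters. With 1 added instead, that difference became -0.58 and passed (exact permutation test, adjusted p = 0.0159).

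**Figure D3:**
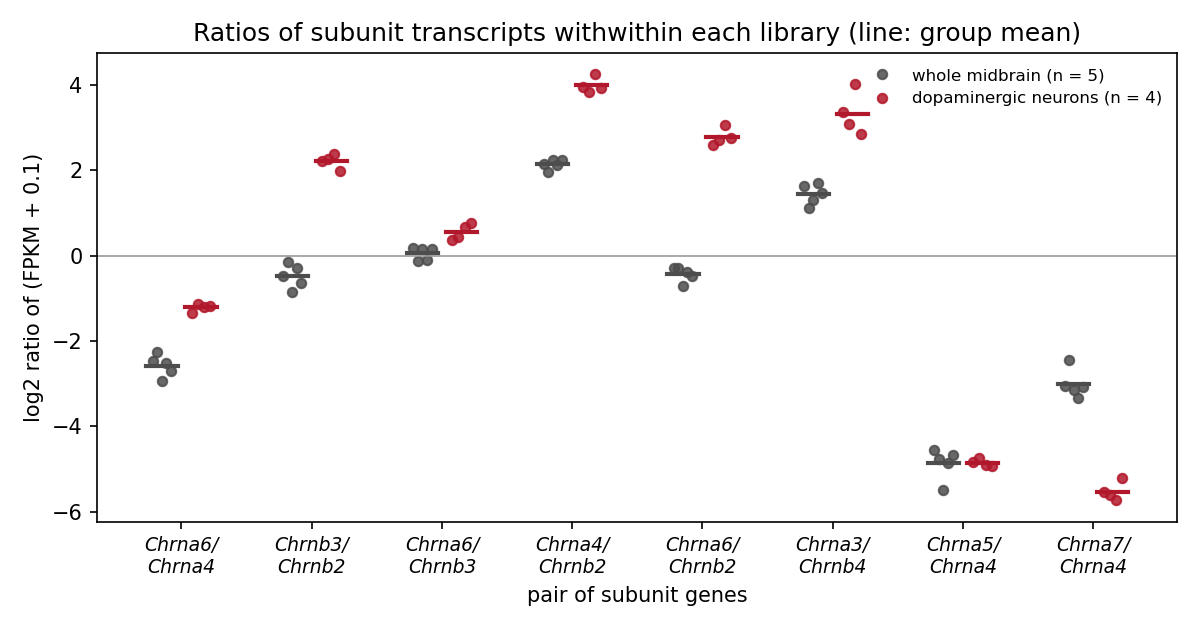
Log2 ratio of FPKM + 0.1 for 8 pairs of subunit genes, with 1 point for each library, short lines for group means and a horizontal line where both genes are equal. The groups are apart for every pair except Chrna5 to Chrna4, and for Chrnb3 to Chrnb2 and Chrna6 to Chrnb2 they lie on opposite sides of the line of equality.

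Of 8 measured genes that help receptors assemble and reach the membrane, 5 rose and 3 fell, where 38.3 and 36.0 percent of all tested genes did. Their median log2 fold change was 0.31, beside 0.04 over all genes. The largest rises were Vsnl1, a calcium sensor that raises surface levels of alpha4 and beta2 receptors, at 2626 ± 118 FPKM against 607 ± 94.2, and Ywhah, a 14-3-3 protein, at 1071 ± 51.5 against 372 ± 55.2. Those that fell were Ric3, a chaperone needed for alpha7 receptors, at 19.2 ± 1.17 against 27.2 ± 4.96, and the general chaperones Canx and Hspa5. Canx fell by 0.94 on the log2 scale and Hspa5 fell by 1.27. The call of Ric3 (log2 fold change -0.46, limma adjusted p = 0.0096; the groups overlap) ended after correction for exonic length (-0.19, adjusted p = 0.177).

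Tmem35, listed under its older symbol, encodes the chaperone NACHO, which promotes alpha7 assembly. It was called higher at 31.5 ± 3.59 FPKM against 25.4 ± 3.22 (log2 fold change 0.30, limma adjusted p = 0.0293), with groups that overlap. The call ended without whole midbrain library 3 (0.0550) or 5 (0.0623) and without dopaminergic library 3 (0.0941) or 4 (0.0579). It also ended with upper-quartile scaling (0.536), and its sign turned as TPM (-0.33) and under quantile normalization (-0.02).

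The Ly6 family of small membrane-anchored proteins, which bind nicotinic receptors and tune them, had 6 tested members. Of these 3 rose and 2 fell (median log2 fold change 0.28), counts near the 38.3 and 36.0 percent of all tested genes. Lypd1, also called Lynx2, averaged 73.1 ± 3.91 FPKM in the neurons against 25.9 ± 2.67 in the tissue. Lypd6 and Lypd6b were lower, at 1.78 ± 0.458 against 6.75 ± 0.796 and at 2.84 ± 0.882 against 8.34 ± 1.57. Lynx1, the best known member, was abundant in both groups at 97.4 ± 9.87 and 113 ± 19.8 and did not pass (log2 fold change -0.19, limma adjusted p = 0.251). It was called lower without whole midbrain library 2 (-0.32, limma adjusted p = 0.00098) and with library weights, upper-quartile scaling, quantile normalization or TPM.

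Among genes that make, load, take up and break down acetylcholine, 2 of 6 tested rose, 3 fell and 1 did not pass (median log2 fold change -0.72), again near the 38.3 and 36.0 percent of all tested genes. Prima1, the anchor that ties acetylcholinesterase to neuronal membranes, was at 47.3 to 61.0 FPKM against 5.29 to 9.49, 7.36-fold higher. Ache, the esterase itself, was at 33.1 ± 3.51 against 25.8 ± 3.62 (log2 fold change 0.35, limma adjusted p = 0.0177), with groups that overlap. Its call ended without dopaminergic library 3 (0.0523) or 4 (0.0566) and under upper-quartile scaling (0.431) and quantile normalization (0.981), and as TPM its log2 fold change was -0.28. Slc5a7, the choline transporter of cholinergic terminals, fell from 4.41 ± 1.22 to 0.485 ± 0.128 FPKM, with a log2 fold change of FPKM + 1 of -1.84. Chat, the enzyme that makes acetylcholine and the 1 that did not pass, was at 1.34 ± 0.541 against 1.60 ± 0.329 and is named after its values were seen.

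The 7 nicotinic subunits of muscle and hair cells were all below a mean of 1 FPKM over the 9 libraries. Their FPKM summed to 0.830 to 0.932 in dopaminergic neurons and to 1.89 to 2.57 in whole midbrain. Chrnb1, at 0.477 ± 0.189 against 1.30 ± 0.177, and Chrna1, at 0.289 ± 0.0837 against 0.692 ± 0.148, did not overlap between the groups. Of the genes in the main test, which left these subunits out, 31.8 percent lay lower without overlap. Without the filter on low values Chrnb1 and Chrna1 were called lower (limma adjusted p = 0.00041 and 0.0014). That fit called 34.2 percent of 20084 genes lower. Chrnb1 and Chrna1 are named after their values were seen. Chrnd and Chrng were listed at 0 in all dopaminergic libraries. In whole midbrain Chrnd was also at 0 throughout, and Chrng was above 0 only in library 3, at 0.0708.

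**Figure D4:**
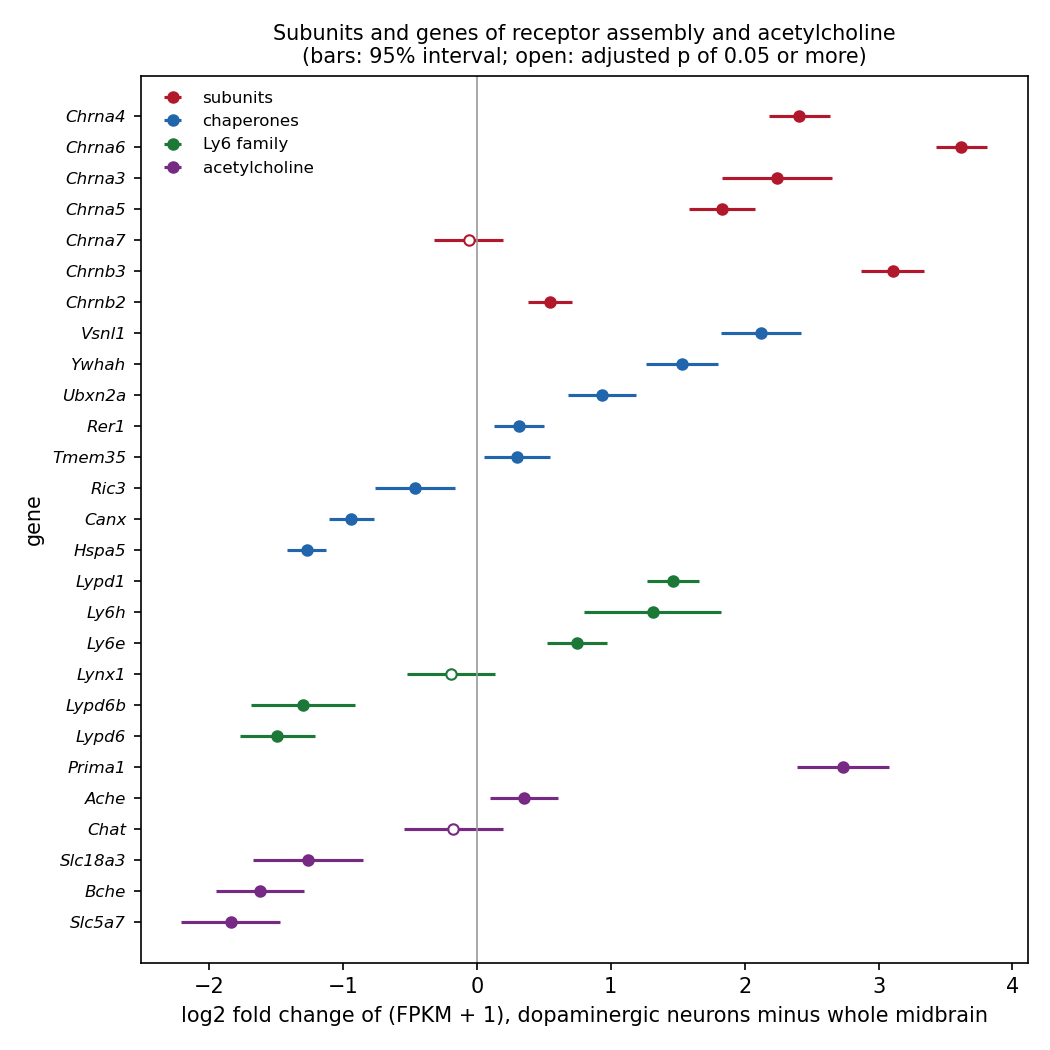
Log2 fold change of FPKM + 1, dopaminergic neurons minus whole midbrain, for 7 tested subunits and the tested genes of assembly, the Ly6 family and acetylcholine, with 95 percent intervals; open circles did not pass. Chrna6 and Chrnb3 lie farthest right of all genes shown, with Prima1 next, and Slc5a7 lies farthest left.

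The genes with the most similar pattern were found by the smallest Euclidean distance in log2(FPKM + 1) over the 9 libraries, among 19422 rows. Closest to Chrna6 was Nr4a2, a nuclear receptor that dopaminergic neurons need, at a distance of 0.59, with 98.0 ± 6.38 FPKM against 6.62 ± 0.706. Next were Atg7 (0.86) and Hist2h4 (1.08). Closest to Chrnb3 were Gse1 (0.72), Hist2h4 (0.74) and Prima1 (1.05). Among the 3 rows closest to Chrna4 were Dlk1 (0.78) and Fxyd7 (0.85). Chrna3 lay nearest to Whrn (0.82), with Chrm5, the muscarinic acetylcholine receptor of these neurons, second at 14.7 ± 3.06 FPKM against 1.89 ± 0.424, then Wbscr27 (1.12). Chrna5 had Hist1h1d (0.66), Hic2 (0.69) and the homeobox gene En2 (0.70). Chrnb2 had Commd8 and Cntnap4 among its 3, each at 0.29, and Chrna7 had Chsy1 (0.33), Wdr5 (0.39) and Heatr6 (0.39). These distances describe level and difference together, in libraries that share their groups.

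Of 20 other genes within 100 kb of a subunit 12 were tested, of which 6 rose, 4 fell and 2 did not pass, counts near the 38.3 and 36.0 percent of all tested genes. Beside the chromosome 9 cluster, Hykk and Ireb2 did not pass (log2 fold changes -0.09 and -0.17). Psma4, a proteasome subunit, rose by 0.91 on the same log2 scale, which is used for all neighbours here. Around Chrna6 and Chrnb3, Tex24, Poteg and Gm9731 were each below a mean of 1 FPKM, and Eif4ebp1 rose by 0.99. Next to Chrna4, Arfgap1 rose by 0.57, Nkain4 fell by 1.61, and Col20a1 and Birc7 were below the filter. Kcnn3, a calcium-activated potassium channel 81.0 kb from Chrnb2, rose by 1.57 and Ube2q1 by 0.74, more than Chrnb2 itself. Beside Chrna2, Ephx2 fell by 1.11 and Ptk2b by 0.63.

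Markers of glia, vessels and most other neurons were lower where the subunits were higher, while the habenula list was mixed. The summed FPKM of 6 astrocyte genes was 20.7 to 28.5 in dopaminergic neurons and 321 to 462 in whole midbrain, that of 6 oligodendrocyte genes 154 to 259 against 2723 to 3216, and that of 6 microglial genes 2.99 to 5.29 against 59.1 to 82.4. All 18 fell, as did all 4 endothelial genes, whose sum was 0.480 to 1.52 against 47.2 to 86.2. The 3 GABAergic genes summed to 42.6 to 49.4 against 241 to 276, the 2 glutamatergic genes to 10.2 to 15.6 against 52.7 to 72.0, and the 5 serotonergic and noradrenergic genes to 6.45 to 13.0 against 48.8 to 110.8. Of 6 cholinergic markers 3 were tested and 2 fell, with a sum of 1.79 to 3.48 against 6.70 to 12.3. Phox2a was listed at 0 in all dopaminergic libraries and in all of whole midbrain except library 2, at 0.0305. Of 5 genes of the medial habenula, a region rich in Chrna3 and Chrnb4, 4 were tested. Of these 2 fell, Tac2 did not pass, and Nwd2 rose to 17.0 ± 1.76 FPKM from 2.65 ± 0.296. The list summed to 16.6 to 24.3 against 6.50 to 10.5. Nwd2 held most of the dopaminergic sum, whose mean was 19.6, and 3 of the 5 genes had a lower mean in dopaminergic neurons. The part of these cells in the subunit values of whole midbrain, and in the low dopaminergic values of Chrna2 and Chrnb4, was not tested.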

How the data were processed

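The authors deposited 1 table of FPKM for 5 whole midbrain and 4 dopaminergic libraries. Per the submitters' processing notes it was made with TopHat2 2.0.8 and Cufflinks 2.1.1 on mm10. Annotation, options and strand handling: not given in the sources used here. Per the labels' protocols, cDNA amplified from nanogram amounts of RNA was read single-ended at 100 bases. Deposited FPKM of whole midbrain libraries 1 to 5 are whole multiples of 0.0001 divided by 367, 404, 364, 364 and 370. A weighted mean of several values would have this form, which the dopaminergic values lack. No label records such a step, and whether values were averaged was not tested. FPKM are not counts, so log2(FPKM + 1) was fitted, for genes averaging 1 FPKM or more, with limma 3.58.1 in R 4.3.3 (mean-variance trend, two-sided, Benjamini-Hochberg over 13106 genes, threshold 0.05, tested on simulated data). Fold changes on that scale understate those of low genes. Ratios used an exact permutation test on log2 of FPKM + 0.1. Steps of 1 read were sought in single-exon receptor genes but agreed in at most 2 genes a library, so no depth is given. Spans are the table's, counted from 1, and exons and strands are from GENCODE M21 on GRCm38, the same assembly. Promoters are from RefSeq for 6 of 9 members. Python 3.11.15 was used for summaries. Named genes were all 9 members, the 2 largest passing changes and those against the majority in each pathway list, Ric3, Tmem35, Lynx1 and Ache, the 3 most similar rows and neighbours within 100 kb. The members and lists were chosen with earlier results of these data known. Alternatives were pseudocounts, filters, scalings, no trend, library weights, a replicate block and leaving out each library, with a length correction added after seeing the data. A few genes that this rule names are not reported here.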

Additional observations from a re-analysis of the deposited data

Results flagged for a closer look

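Of 34 sets of values checked, 9 subunits and 8 ratios in each group, 1 held a library far from the others of its group. The ratio of Chrna7 to Chrna4 was 0.183 in whole midbrain library 2, where the nearest library stood at 0.121. That library had the highest Chrna7 and the lowest Chrna4 of its group. Chance alone flags about 1 in 20 such sets.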

How the results depend on the processing

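The 6 calls of higher subunits and the absence of a lower one were the same in the 9 fits that left out 1 library each. Over those fits the number of all genes called ranged from 4699 to 5654 higher and from 4445 to 4974 lower. As TPM, 5 subunits were higher and 1, Chrna7, was lower, and over all genes the counts were 2248 higher and 7393 lower. Without the filter on low values, 7 were higher and 1, Chrna2, lower. With a minimum mean of 5 FPKM, 2493 genes were lower, with 8669 genes tested. Chrna3, Chrna4, Chrna5, Chrna6 and Chrnb3 passed under every setting in which they were tested, with log2 fold changes from 1.29 to 2.80, 1.74 to 2.48, 0.92 to 2.45, 3.03 to 3.80 and 2.53 to 3.29. The sign turned for Chrnb2 as TPM (-0.041), for Chrna7 under quantile normalization (0.22) and median centring (0.0074), for Tmem35 under quantile normalization (-0.024) and as TPM (-0.33), and for Ache as TPM (-0.28). The cause was not tested. Of the 8 ratios, 7 differed in every fit that left out a library. Chrna5 to Chrna4 turned with 1 added to FPKM (-0.58), without whole midbrain library 3 (-0.15) and without dopaminergic library 2 (-0.03), with a range from -0.15 to 0.089 when 1 library was left out. Same-numbered libraries correlated at -0.04, -0.05, 0.01 and 0.02 in their deviations from the group means, so the numbers were not taken as pairs. With the replicate block 6 subunits were higher and none lower, with 4554 and 4355 calls over all genes. The paired test of the ratios cannot go below an exact p of 0.125 with 4 pairs, which each of the 7 reached, so none passes under it; their log2 differences kept their sign. The block ended the call of Tmem35 (log2 fold change 0.23, limma adjusted p = 0.132). What depth limits could not be given, since it is unknown.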
